A study of Mus musculus with 4 samples.

Results

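Alpha-defensins are small, positively charged peptides that mouse Paneth cells store in granules and release into the crypt lumen of the small intestine, where they kill bacteria. In the mouse they are also called cryptdins. They are made as inactive precursors that the metalloproteinase Mmp7 cuts to the active form, and they are encoded by a tight cluster of near-copies of one another. The results below concern every probe set of the array whose platform annotation holds a gene symbol starting with Defa, which was 5 of the 45037 probe sets that are not controls. A probe set is a group of short probes read together as 1 value. Of the 5, 4 were among the brightest of the arrays in both genotypes, with hypomorph means at 88.7% to 95.3% of the wildtype means and 0 calls between genotypes in limma, and the Defa3 probe set was at the floor in both.

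RNA came from laser-captured Paneth cells of the Atg16 hypomorph, an allele of reduced function, and of wildtype mice, with 2 arrays each. All 4 samples are labelled as mixed C57BL/6 - 129ola. The sources used here do not give the allele, or the age, sex and number of animals. Nothing in the labels says whether separate animals lie behind the arrays of a group, so the p-values reflect the spread among these 4 samples alone and may capture technical variation. The comparison asks whether reduced function of the autophagy gene Atg16l1 changes the level of alpha-defensin RNA. Because captured tissue was measured, fewer Paneth cells and less RNA per Paneth cell cannot be told apart.

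The samples carried the RNA of Paneth cells. The lysozyme gene Lyz1 read 14561 and 15097 in hypomorph and 15481 and 16021 in wildtype. Mmp7 read 8463 and 9486 in hypomorph and 9063 and 9314 in wildtype. Atg16l1 read 966 and 995 in hypomorph and 1335 and 1183 in wildtype, which differed by -0.35 on the log2 scale and was not called (limma, adjusted p = 0.102). The groups also differed in Xist, a transcript of female cells, at 4462 ± 67.9 in hypomorph and 21.8 ± 5.36 in wildtype (SD, n = 2 arrays each). Xist was high on both hypomorph arrays and low on both wildtype arrays, so effects of genotype and of sex cannot be told apart here. Whether the Xist difference bears on the defensins was not tested.

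The 5 probe sets carry 7 gene symbols, out of 28 numbered alpha-defensin genes in the RefSeq gene table, all of which lie on chromosome 8. Counted along the cluster, Defa21 is gene 1, Defa30, Defa22 and Defa31 are genes 6, 7 and 8, Defa3 is gene 11, and Defa39 and Defa24 are genes 27 and 28. Probe set 1450631_x_at is annotated to both Defa30 and Defa24, which lie far apart in this order, and 1436857_at to both Defa22 and Defa21. The other 3 carry 1 symbol each, Defa39 (1429378_x_at), Defa31 (1422934_x_at) and Defa3 (1422802_at). In the array maker's naming the ending _x_at, which 3 of the 5 bear, marks probes that can also bind other transcripts. The target sequence named in the annotation is a RefSeq transcript of the annotated gene for 2 of the 5, Defa3 and Defa31. No value below can therefore be assigned to 1 gene with certainty, and each may sum RNA of annotated genes and of the 21 unlisted ones.

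How alike the copies are can be seen in the bases before their start sites, which are shown because 1 probe set is annotated to both Defa21 and Defa22. RefSeq promoters (GRCm38.p6) were held for 4 of the 7 genes. Each line below gives the 250 bases before the annotated start, 5′ to 3′ on the plus strand, with capitals marking ATCAAAG, the letters bound by TCF/LEF factors, the DNA-binding partners of beta-catenin, and TATAAA, the letters of a TATA box.
Defa21 and Defa22, chr8:21025295-21025544 and chr8:21162027-21162276: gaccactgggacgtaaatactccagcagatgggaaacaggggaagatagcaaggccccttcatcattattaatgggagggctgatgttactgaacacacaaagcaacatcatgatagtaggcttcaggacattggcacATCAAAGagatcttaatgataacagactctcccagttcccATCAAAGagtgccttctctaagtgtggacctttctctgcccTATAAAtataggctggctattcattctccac
Defa31, chr8:21191323-21191572: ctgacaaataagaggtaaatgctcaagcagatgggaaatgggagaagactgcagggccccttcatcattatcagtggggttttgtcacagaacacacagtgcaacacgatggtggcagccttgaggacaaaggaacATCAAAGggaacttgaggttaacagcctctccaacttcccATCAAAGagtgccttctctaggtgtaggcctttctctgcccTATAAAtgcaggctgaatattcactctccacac
Defa30, chr8:21134400-21134649: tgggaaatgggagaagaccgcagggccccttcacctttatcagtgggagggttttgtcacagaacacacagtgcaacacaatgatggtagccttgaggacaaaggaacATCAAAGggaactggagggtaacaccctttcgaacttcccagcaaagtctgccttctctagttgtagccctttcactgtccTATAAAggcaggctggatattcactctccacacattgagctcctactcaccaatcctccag

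The windows of Defa21 and Defa22 were identical at all 250 bases. In global alignments the window of Defa31 matched theirs in 199 of 254 columns (78.3%) and that of Defa30 in 199 of 281 (70.8%). The window of Defa30 matched theirs in 173 of 280 columns (61.8%). Columns with gaps count in these shares, and the Defa30 window is shifted against the others, as its TATAAA position below shows. The shares therefore do not rank how close Defa30 is to the other copies. ATCAAAG began 112 and 72 bases before the start in Defa21 and Defa22, 114 and 74 bases before it in Defa31, and 142 bases before it in Defa30, always on the plus strand. TATAAA began 31 bases before the start in Defa21 and Defa22, 33 in Defa31 and 61 in Defa30. The 2 ATCAAAG matches thus stood at nearly the same places in Defa21, Defa22 and Defa31. Among all 32851 promoter windows of this length in the table, 3.21% held ATCAAAG and 12.4% held TATAAA on either strand. TTCAAAG, the other TCF/LEF spelling searched on both strands, was in 4.46% of all windows and in none of the 4. These are letter matches and not measured binding. The promoters show how close the copies are, not which transcripts the probes bind, since probe sequences were not used here.

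The probe sets fell into 2 kinds, 4 that were among the brightest of the array and 1 at its floor. All values are deposited linear intensities. The probe set for Defa30 and Defa24 read 12413 and 11687 in hypomorph and 12901 and 12979 in wildtype. That for Defa22 and Defa21 read 9982 and 10679 in hypomorph and 11217 and 10878 in wildtype. In both cases each hypomorph array was below each wildtype array, and the hypomorph arrays lay further apart than the wildtype arrays.

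The Defa39 probe set read 10276 and 10574 in hypomorph and 10972 and 10907 in wildtype. That for Defa31 read 7168 and 8007 in hypomorph and 8543 and 8559 in wildtype, so that its wildtype arrays were nearly equal and hypomorph replicate 1 stood lowest. The Defa3 probe set read 2.19 and 2.91 in hypomorph and 1.36 and 3.84 in wildtype, and the groups overlapped. All 4 values were far below 47.7, the intensity at the brightness filter, so it was not tested and no fold is given. Hypomorph replicate 1 was the lower of the hypomorph arrays for Defa31, for Defa39 and for the Defa22 and Defa21 probe set, whereas replicate 2 was the lower one for Defa30 and Defa24.

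Brightness placed the 4 probe sets close to the top of each array. The probe set for Defa30 and Defa24 ranked 27 and 71 among all probe sets in hypomorph and 29 and 35 in wildtype. The Defa22 and Defa21 probe set ranked 138 and 117 in hypomorph and 99 and 114 in wildtype, and that of Defa39 ranked 117 and 125 in hypomorph and 111 and 112 in wildtype. Defa31 ranked 419 and 336 in hypomorph and 281 and 285 in wildtype. The order of brightness was Defa30 and Defa24 first and Defa31 last of the 4, with no overlap of these with their neighbours on any array, while the Defa22 and Defa21 probe set and that of Defa39 overlapped. Probe sets differ in how well their probes bind, so this order does not rank the amounts of RNA.

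The brightest probe sets of the arrays read 15979 and 20106 in hypomorph and 17932 and 18339 in wildtype. The Defa30 and Defa24 probe set stood at 77.7% and 58.1% of that highest value in hypomorph and at 71.9% and 70.8% in wildtype. Defa31 stood at 44.9% and 39.8% in hypomorph and at 47.6% and 46.7% in wildtype. The highest value itself thus differed between the hypomorph arrays by more than any of the 4 probe sets did. It came from a different probe set on each hypomorph array and from that of Rpsa on both wildtype arrays. It is not a measured limit of detection.

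Differences were small among probe sets this bright on average. Of the 325 probe sets at least as bright on average as that of Defa31, 0 had a log2 difference beyond 1 in either direction, and the range was -0.38 to 0.83. Over all 22519 tested probe sets 226 did (1.00%). Among the 325 limma called 2 at an adjusted p under 0.05 (0.615%, against 3.71% of all tested probe sets). They were the lipid elongase gene Elovl5 and the peptide hormone gene Ucn2, both lower in hypomorph. The median log2 difference of the 325 was -0.044. The 2 genes were picked out after their values were seen. Whether the intensity scale is compressed there was not tested.

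None of the 4 bright probe sets passed the test between hypomorph and wildtype (limma, 0 called in either direction at an adjusted p under 0.05, and 1, Defa31, at an unadjusted p under 0.05). Over all tested probe sets 3.71% were called, 2.04% higher and 1.67% lower in hypomorph, and 20.5% had an unadjusted p under 0.05, so 1 of 4 is close to that background. Each difference is the mean log2(intensity + 32) of hypomorph minus that of wildtype. The median over the 4 was -0.10, against -0.031 over all tested probe sets. All 4 had both hypomorph arrays below both wildtype arrays, an arrangement found in 29.9% of tested probe sets. Since the 4 share arrays and may share targets, they do not count as 4 separate observations.

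Defa31 had the largest difference of the 4. It averaged 7587 ± 593 in hypomorph and 8551 ± 11.2 in wildtype (SD, n = 2 arrays each), so that the hypomorph mean was 88.7% of the wildtype mean. Its log2 difference was -0.17 (SE 0.062, 95% interval -0.31 to -0.036) with an adjusted p of 0.152 in limma. Without hypomorph replicate 2 the difference was -0.25 and passed the threshold (limma, adjusted p = 0.017), and without hypomorph replicate 1 it was -0.094 (adjusted p = 0.403).

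The probe set for Defa30 and Defa24 averaged 12049.9 ± 513 in hypomorph and 12940.3 ± 55.0 in wildtype, or 93.1% of wildtype. Its log2 difference was -0.10 (SE 0.047, 95% interval -0.21 to 0.0023; limma, adjusted p = 0.254). That for Defa22 and Defa21 averaged 10331 ± 493 in hypomorph and 11048 ± 239.6 in wildtype, or 93.5%, with a difference of -0.097 (SE 0.051, 95% interval -0.21 to 0.018; limma, adjusted p = 0.321). Both differences were about as large as the gap between the hypomorph arrays, which was 0.087 and 0.097 on the log2 scale.

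The Defa39 probe set averaged 10425 ± 211 in hypomorph and 10939 ± 45.5 in wildtype, or 95.3%. Its difference was -0.069 (SE 0.046, 95% interval -0.17 to 0.034; limma, adjusted p = 0.432). Taken singly, the intervals of the 4 leave out a fall of more than 0.31 and a rise of more than 0.034 on this scale. This requires that the spread shared across probe sets holds for them and that the scale is not compressed. Without the intensity trend the differences were the same, but unadjusted p-values rose, from 0.0185 to 0.173 for Defa31 and from 0.166 to 0.523 for Defa39 (limma). The bounds therefore rest on that trend. Quantile normalisation reduced the differences of the Defa30 and Defa24, the Defa22 and Defa21 and the Defa39 probe sets to -0.052, -0.054 and -0.025.

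Genes listed as other Paneth cell products are given for comparison, and whether other captured cells also make them was not tested. Of 21 listed genes 19 had a probe set with 1 symbol, and all 19 were tested. Of these 4 were called higher in hypomorph and 1 lower, against 2.04% and 1.67% of all tested probe sets. In limma 9 of the 19 had an unadjusted p under 0.05, against 20.5% of all tested probe sets. The median log2 difference of the 19 was 0.012. Reg3g, an antibacterial lectin, was at 8023 and 8810 in hypomorph and 6983 and 7066 in wildtype (difference 0.26; limma, adjusted p = 0.0453). The other rises were of the lectin gene Reg3a (0.89), the mucosal pentraxin gene Mptx1 (0.83) and the ribonuclease gene Ang (0.64), and the transport protein gene Ttr fell by 0.82. Reg3a was dim, at 99.2 and 92.7 in hypomorph and 26.9 and 49.4 in wildtype. Its wildtype mean of 38.1 lay below 47.7, the intensity at the brightness filter. The 14 that were not called ranged from -0.16 to 0.24, and 8 of them had a negative difference. Reg3, Ang and lysozyme genes also have close copies, so their probes can cross-hybridise. Leaving out wildtype replicate 1 reduced the rises to 2, Ang and Mptx1. Reg3a was also lost when hypomorph replicate 1, and Reg3g when wildtype replicate 2 or hypomorph replicate 2, was left out. In that last setting 4 genes fell, Ang4, Pigr, Pnliprp2 and Ttr.

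Patterns over the 4 arrays were compared with that of Defa39, the brightest alpha-defensin probe set with 1 symbol, as the Euclidean distance between log2 values centred on their own mean. The closest of the 19 products were the lectin gene Itln1 (distance 0.035), Lyz1 (0.045) and the immunoglobulin transporter gene Pigr (0.080). Among alpha-defensins the Defa22 and Defa21 probe set stood at 0.054, that of Defa30 and Defa24 at 0.097, and Defa31 at 0.13. The distance is small for any probe set that varies little, so a low value shows similar size of variation as much as a shared pattern, and none is given for Defa3, whose values at the floor are flattened by the added 32. Itln1 read 10128 and 10459 in hypomorph and 11120 and 11016 in wildtype, a difference of -0.10 (limma, adjusted p = 0.243), and Lyz1 differed by -0.087 (adjusted p = 0.291). The ribonuclease gene Ang4, also a Paneth granule product, differed by -0.14 (adjusted p = 0.172). Other bright products lay on the positive side without passing the test, among them Reg3b (0.061), the protease inhibitor gene Spink4 (0.088) and Clps, which encodes colipase (0.11).

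Genes that process defensins or regulate Paneth cells were measured beside them. Of 15 tested genes on this list limma called 0, and 3 had an unadjusted p under 0.05, a share close to the 20.5% of all tested probe sets. The median log2 difference was -0.033. Mmp7 differed by -0.036 (SE 0.061, 95% interval -0.17 to 0.10; limma, adjusted p = 0.786), and its groups overlapped. For reference, the 3 were the potassium channel gene Kcnn4 at 6644 and 6609 in hypomorph and 7683 and 7550 in wildtype (difference -0.20, adjusted p = 0.0692), the secretory pathway gene Agr2 (-0.23, adjusted p = 0.0693) and the transcription factor gene Spdef (-0.42, adjusted p = 0.219). Without hypomorph replicate 2, Agr2 alone of this list was called, as lower. The TCF factor gene Tcf7l2 differed by 0.19 and Ctnnb1, which encodes beta-catenin, by -0.015, and neither passed the test (adjusted p = 0.515 and 0.897 in limma).

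Markers of other cells moved with the groups. For comparison, 2.04% of all tested probe sets were called higher and 1.67% lower in hypomorph, and 20.5% had an unadjusted p under 0.05 in limma. All 7 tested of 8 measured fat cell markers rose in hypomorph, where the 8 summed to between 23764 and 24780 against 9103 to 9132 in wildtype, and Retn was too dim to test. Of 8 tested enterocyte markers 6 rose, and the 9 measured ones summed to 22015 to 22791 in hypomorph and to 15096 to 15783 in wildtype. Of 9 enteroendocrine markers 4 fell (2 without wildtype replicate 1), with sums of 10246 to 10674 in hypomorph and 13018 to 14027 in wildtype. Of 7 stem cell markers 2 fell, a number that was 0 and 1 when wildtype replicate 1 or 2 was left out and 4 when hypomorph replicate 2 was left out. The stem cell sums were 14339.5 to 14384 in hypomorph and 15922 to 16233 in wildtype. Among T and NK cell markers the granzyme genes Gzma (0.74) and Gzmb (1.40) rose, 2 of 4 tested. Ptprc differed by -0.26 and Cd3g by 0.042, and neither was called (limma, adjusted p = 0.216 and 0.943). Cd3e was too dim to test. The 5 summed to 3925 to 4193 in hypomorph and 3372 to 3444 in wildtype, and not all of them rose. Of 6 goblet cell markers limma called 0 in either direction (3 at an unadjusted p under 0.05), with sums of 31804 to 32565 in hypomorph and 31733 to 33351 in wildtype. Spdef is 1 of these 3 and is also counted on the list of Paneth cell regulators above. The part of these cells in the alpha-defensin values was not tested.

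Neutrophils, which carry alpha-defensins in humans, left little trace. All 6 neutrophil markers, among them S100a8, S100a9 and Mpo, were below the brightness filter, and together they summed to 81.6 to 88.3 in hypomorph and 61.6 to 67.6 in wildtype. What this means for the source of the alpha-defensin values was not tested.

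Most alternatives could not change the direction of the 4 bright probe sets. Both hypomorph arrays lay below both wildtype arrays, so leaving out an array or changing the pseudocount keeps the sign. The filter, trend, prior and block settings leave the difference itself as it was. Only quantile normalisation and median centring could have changed the direction, and under these the values stayed below 0. Over 13 other settings the Defa31 difference ranged from -0.25 to -0.094, that of Defa30 and Defa24 from -0.15 to -0.052, that of Defa22 and Defa21 from -0.15 to -0.049, and that of Defa39 from -0.09 to -0.025. Defa31 passed the threshold under 2 of the 13, without hypomorph replicate 2 and with the replicate number as a block (adjusted p = 0.017 and 0.0213 in limma). The other 3 passed under none, with smallest adjusted p-values of 0.106, 0.0823 and 0.237 in limma.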

How the data were processed

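The authors deposited 1 linear intensity per probe set and array. Per the labels' protocols RNA was extracted with PicoPure and amplified and biotin-labelled with RiboAmp plus. The sources used here do not give the scaling, background correction or probe summary, and the values were not normalised again. The number of arrays limits the precision. Names came from the platform annotation, and 64 control probe sets were left out. RefSeq tables (GRCm38.p6) gave gene order and promoters. The sources used here name no build for the probe design.

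Intensities were tested as log2(intensity + 32) in limma 3.58.1 under R 4.3.3 (group as only term, eBayes with an intensity trend, 2 residual and 7.81 prior degrees of freedom). Those whose mean log2 value lay below the median (6.316) were not tested, and p-values were adjusted by Benjamini-Hochberg over the 22519 kept. Tests are two-sided. Promoters were aligned with Biopython 1.88. On simulated data for this comparison, with 22519 probe sets, 13.4% of changes of 0.5, 83.6% of changes of 1 and 100% of changes of 2 (log2) were recovered. Of 140 calls 9 were false. The changed probe sets were drawn from all tested ones whatever their brightness. These shares therefore do not give the recovery at the brightness of the 4 bright alpha-defensin probe sets.

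The rule for named genes was all probe sets with a Defa symbol, Atg16l1, Mmp7, up to 4 members per gene list (called ones by size first, otherwise by smallest unadjusted p), and the 3 Paneth cell products closest in pattern to Defa39. Other genes are given for context. Each listed gene is given by the brightest probe set with that symbol alone. Members, lists and alternatives were chosen with earlier results of these data known. The alternatives were other scalings, pseudocounts, filters and priors, the replicate number as a block, and each array left out in turn, where the spread of the lone array is taken from the other group.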

Additional observations from a re-analysis of the deposited data

How the results depend on the processing

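Over all probe sets 459 were called higher and 377 lower in hypomorph. The counts were 183 and 120 without a brightness filter and 192 and 131 without the intensity trend, and at a filter on the 75th percentile 244 were lower. Leaving out 1 array in turn gave 317 to 706 higher and 178 to 942 lower, the largest counts without hypomorph replicate 2. With the replicate number as a block the counts were 1489 and 1717. Same-numbered arrays deviated from their group means with a correlation of 0.264 over probe sets, but only the number links them. Of the alpha-defensin probe sets 0 were called lower as reported. The count was 1, Defa31, with the replicate block (adjusted p = 0.0213 in limma) and 0 to 1 when each array was left out. It was 0 under the other 8 alternatives, and 0 were called higher under any of the 13. The 2 arrays per group limit how small a change could be called. Whether the brightness of the 4 bright alpha-defensin probe sets adds to this was not tested.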

Other observations

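The beta-defensins, epithelial antimicrobial peptides of a related family, were looked at after the alpha-defensin values were seen. Of 22 probe sets with a Defb symbol 3 were bright enough to test. Of these limma called 2, against 3.71% of all tested probe sets, both for Defb1 and both lower in hypomorph. The brighter averaged 662 in hypomorph and 1003 in wildtype (log2 difference -0.57, adjusted p = 0.0294). The second averaged 225 in hypomorph and 365 in wildtype (difference -0.63, adjusted p = 0.0473). Both calls were lost without hypomorph replicate 1 (adjusted p = 0.0833 and 0.14 in limma) and without wildtype replicate 1 (0.178 and 0.245), and the second also without wildtype replicate 2 (0.122). Whether Defb1 differed from the alpha-defensins was not tested.

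Defb1 is the first tested gene past the alpha-defensin cluster in the RefSeq gene order. Of the 20 tested genes nearest the cluster, 10 on each side, limma called 3, against 3.71% of all tested probe sets. They were Tdrp (0.73), Defb1 and 1810012K16Rik (-1.73), which read 51.8 on average in hypomorph and 242 in wildtype. The number was 1 when replicate 1 of either group was left out, 2 without wildtype replicate 2, and 5 without hypomorph replicate 2.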
